A study of Mus musculus with 12 samples.

Results

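The H3K9 methylation peaks of mouse subcutaneous white adipose tissue (WAT) were compared between 2 marks, H3K9me2 and H3K9me3, in order to find regions that carried one mark or both. The 4 WAT peak lists were those of high-fat diet (HFD) H3K9me2, standard chow diet (SCD) H3K9me2, HFD H3K9me3 and SCD H3K9me3, with 1 library each. Autosomal peaks with a score of 50 or more were joined into regions wherever they overlapped by at least 1 bp, which gave 45410 WAT regions. The same joining over all 8 lists of the series, BAT included, gave 86662 regions. A region was H3K9me2-specific when it held an H3K9me2 peak in both diets and an H3K9me3 peak in neither, H3K9me3-specific in the reverse case, and dual-mark when all 4 lists had a peak in it. Of the 45410 regions, 2733 were H3K9me2-specific (6.02% of regions), 714 were H3K9me3-specific (1.57%) and 1894 were dual-mark (4.17%), so that 5341 regions in all belonged to a class.

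The tissues came from wild-type C57BL/6J mice that were 6 weeks old when feeding with HFD or SCD began, and that were fed for 12 weeks. Brown adipose tissue (BAT) of the same design was profiled with the same marks. The number of mice behind each library, and whether tissue was pooled, is not given in the sources used here. Whole tissue was used, so adipocytes and the immune, vascular and progenitor cells of the fat pad all contributed to each list. Peak lists hold no expression values, so the labelled tissue was not checked against marker genes. With 1 library per diet and mark, no difference between diets or marks could be tested against replicate error, and the exact (Clopper-Pearson) 95% confidence intervals given here cover counting error only. The read depth of the libraries is unknown, since the lists hold positions and scores alone.

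In general, H3K9me2 is written mainly by the G9a and GLP methyltransferases, encoded by Ehmt2 and Ehmt1, and is found over silent parts of gene-rich chromatin. H3K9me3 is written by the SUV39H and SETDB1 enzymes, is bound by the HP1 proteins of the Cbx genes, and is best known from constitutive heterochromatin and from silenced repeats such as retrotransposons. In adipose tissue, H3K9 methylation has been studied mostly as a brake on adipogenic genes such as Pparg.

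Some properties of the lists bear on every result. The methods of the study describe the antibody used for H3K9me2 as one against tri methyl K9, and the antibody used for H3K9me3 as one against di methyl K9. The marks are named here as the library labels name them, and which modification each list measured cannot be told apart with these files. The SCD H3K9me3 list also stood apart from the other WAT lists. It had 7531 autosomal peaks at a score of 50 or more, against 20790 in the HFD H3K9me2 list, 20904 in the SCD H3K9me2 list and 27682 in the HFD H3K9me3 list. It covered 7.45 Mb, where the other 3 lists covered 15.3, 20.9 and 26.2 Mb. Every H3K9me3-specific and dual-mark region needed a peak in this short list, and every H3K9me2-specific region needed the absence of one. The BAT lists, which took no part in the choice of regions, ran across the mark labels of the WAT lists, as described at the end of the results.

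The strongest regions of each class showed how different their sequences were. For each class, 200 bases around the middle of the stretch shared by the required lists are shown for the 2 regions whose lowest score among those lists was highest, read 5′ to 3′ on the plus strand of NCBIM37 (mm9), with CpG dinucleotides in capitals. The promoter of Cux1, which encodes a homeodomain transcription factor, was dense in CpG, whereas the strongest H3K9me2-specific region and the second dual-mark region were both runs of agcac and acac units without any CpG.
H3K9me2-specific, intergenic, chr13:74667110-74667309: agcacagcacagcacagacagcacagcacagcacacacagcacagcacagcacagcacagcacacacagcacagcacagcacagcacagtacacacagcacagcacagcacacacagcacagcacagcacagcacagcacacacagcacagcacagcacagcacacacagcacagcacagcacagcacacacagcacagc
H3K9me2-specific, Cux1 promoter, chr5:137042532-137042731: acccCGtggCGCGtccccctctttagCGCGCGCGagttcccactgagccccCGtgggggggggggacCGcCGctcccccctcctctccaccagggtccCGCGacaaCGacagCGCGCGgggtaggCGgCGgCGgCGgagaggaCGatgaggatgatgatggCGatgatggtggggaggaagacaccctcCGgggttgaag
H3K9me3-specific, Rassf8 intron, chr6:145734247-145734446: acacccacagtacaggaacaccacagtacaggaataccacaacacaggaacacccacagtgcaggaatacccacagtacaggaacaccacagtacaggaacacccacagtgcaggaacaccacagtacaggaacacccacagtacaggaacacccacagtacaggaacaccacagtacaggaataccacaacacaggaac
H3K9me3-specific, intergenic, chr7:15407269-15407468: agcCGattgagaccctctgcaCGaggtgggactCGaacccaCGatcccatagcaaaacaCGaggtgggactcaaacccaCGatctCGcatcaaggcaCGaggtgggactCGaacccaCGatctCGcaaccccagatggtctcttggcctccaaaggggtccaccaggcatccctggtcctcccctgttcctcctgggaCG
dual-mark, Muc19 promoter, chr15:91738724-91738923: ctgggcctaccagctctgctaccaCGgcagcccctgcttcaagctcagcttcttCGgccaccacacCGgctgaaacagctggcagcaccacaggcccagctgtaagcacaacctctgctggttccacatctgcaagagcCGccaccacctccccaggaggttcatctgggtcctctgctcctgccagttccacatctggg
dual-mark, intergenic, chr3:59849396-59849595: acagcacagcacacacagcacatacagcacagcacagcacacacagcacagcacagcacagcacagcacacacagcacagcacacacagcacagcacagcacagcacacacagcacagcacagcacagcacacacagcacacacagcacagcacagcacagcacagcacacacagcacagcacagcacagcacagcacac
The Cux1 window held 23 CpG and the intergenic H3K9me3-specific window on chromosome 7 held 12, while the Rassf8 window, made of near-copies of a short unit with the letters cacagtacaggaa, held 0 CpG.

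The share of peaks that met the other mark depended on which list was counted, and the lists differed in length. Of the HFD H3K9me2 peaks, 52.9% overlapped an HFD H3K9me3 peak, and 56.8% overlapped an SCD H3K9me2 peak, so that the other mark of the same diet was met nearly as often as the same mark of the other diet. Of the HFD H3K9me3 peaks, 38.9% overlapped an HFD H3K9me2 peak. Of the SCD H3K9me2 peaks, 58.1% overlapped an HFD H3K9me3 peak and 19.5% overlapped a peak of the much shorter SCD H3K9me3 list. Of the SCD H3K9me3 peaks, 50.9% overlapped an HFD H3K9me3 peak and 54.0% an SCD H3K9me2 peak. Among the 11309 regions with H3K9me2 in both diets, 16.7% had H3K9me3 in both diets, 57.4% had it in HFD alone, 1.66% in SCD alone and 24.2% in neither. Among the 3758 regions with H3K9me3 in both diets, 50.4% had H3K9me2 in both diets, 1.52% in HFD alone, 29.1% in SCD alone, and the other 714 had it in neither. The most frequent combination was a peak in the HFD H3K9me3 list alone, with 12488 regions, and 6494 regions had a peak in every list but that of SCD H3K9me3.

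**Figure D1:**
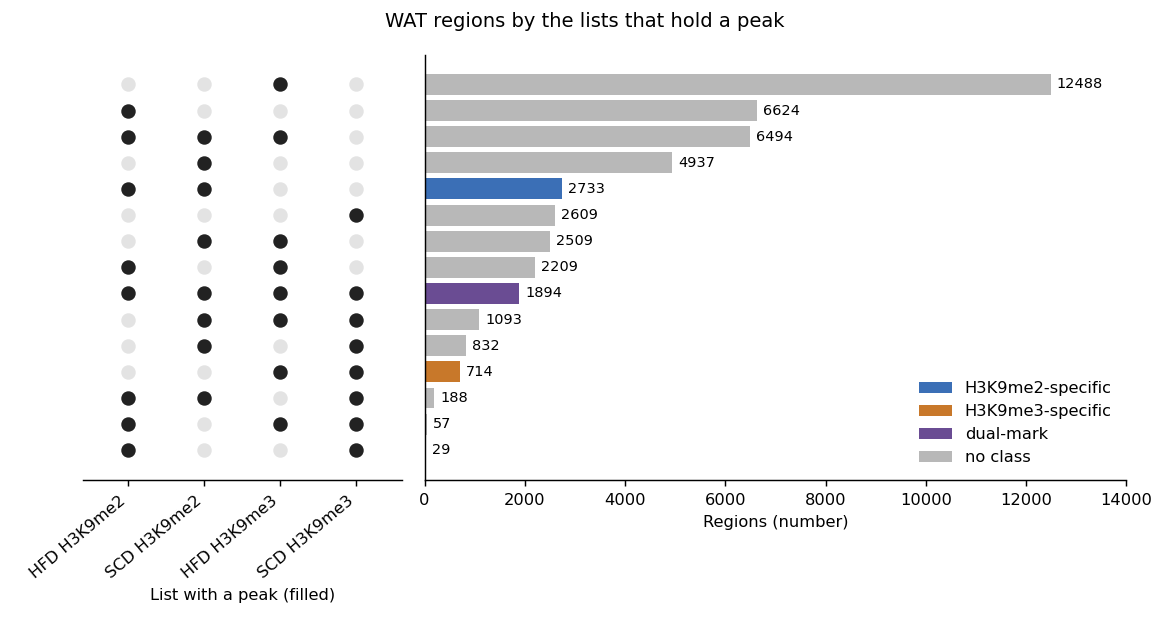
Number of WAT regions (bars) for each combination of the 4 lists that held a peak in them (filled dots, left), with the 3 classes in colour. The 2733 H3K9me2-specific, 1894 dual-mark and 714 H3K9me3-specific regions were fewer than the 12488 regions with a peak in the HFD H3K9me3 list alone.

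The score minimum fell through the middle of a continuous range. The lowest scores just inside the classes were 50 in H3K9me3-specific and 50.02 in dual-mark regions, and the scores just outside were 49.94 for H3K9me2-specific, 49.98 for H3K9me3-specific and 49.99 for dual-mark regions. Between 50 and 55 lay 439 H3K9me2-specific, 236 H3K9me3-specific and 335 dual-mark regions. The deposited SCD lists go down to a score of 30, so that weaker peaks of the other mark could be looked for in that diet. Such a peak below 50 was present in the SCD H3K9me2 list in 293 of 714 H3K9me3-specific regions (41.0%, 95% interval 37.4 to 44.7), against 20.1% of all regions without an SCD H3K9me2 peak at 50. In H3K9me2-specific regions, a weak SCD H3K9me3 peak was present in 361 of 2733 (13.2%, interval 12.0 to 14.5), the same share as the 13.2% among all regions without an SCD H3K9me3 peak at 50.

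The classes differed in where they lay with respect to genes. A promoter was counted where a region came within 3 kb of a start site of a protein-coding gene. Of the H3K9me2-specific regions, 77.9% were at a promoter (interval 76.3 to 79.4), 4.76% were in a coding exon, 4.79% in an intron and 12.4% between genes. H3K9me3-specific regions were mostly intergenic, with 67.5% between genes (interval 63.9 to 70.9), 18.1% in introns, 4.06% in coding exons and 10.1% at promoters (interval 7.97 to 12.5). Dual-mark regions were split, with 40.4% at promoters (interval 38.2 to 42.6), 41.4% between genes and 14.2% in introns. For comparison, 31.2% of all WAT regions were at promoters and 45.4% between genes, and promoters made up 8.29% of the autosomal bases. The 3 promoter intervals did not overlap each other or the share of all regions. The order of the H3K9me2-specific and dual-mark classes turned round, however, when the HFD lists were taken alone. With the HFD lists alone, 35.4% of regions with H3K9me2 and no H3K9me3 were at promoters, against 49.0% of those with both marks. With the SCD lists alone, 51.6% of regions with H3K9me2 and no H3K9me3 were at promoters, against 29.7% of those with both marks.

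At promoters, the classes also differed in the distance to the start site. The middle of 87.4% of the 2128 H3K9me2-specific promoter regions was within 500 bp of a start site, with a median of 90 bp downstream. This was so in 69.9% of the 765 dual-mark promoter regions, whose median was 179 bp downstream, and in 31.9% of the 72 H3K9me3-specific ones, which were spread over the whole window. The promoters of 2 or more genes were reached by 13.7% of H3K9me2-specific, 2.78% of H3K9me3-specific and 7.32% of dual-mark promoter regions.

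**Figure D2:**
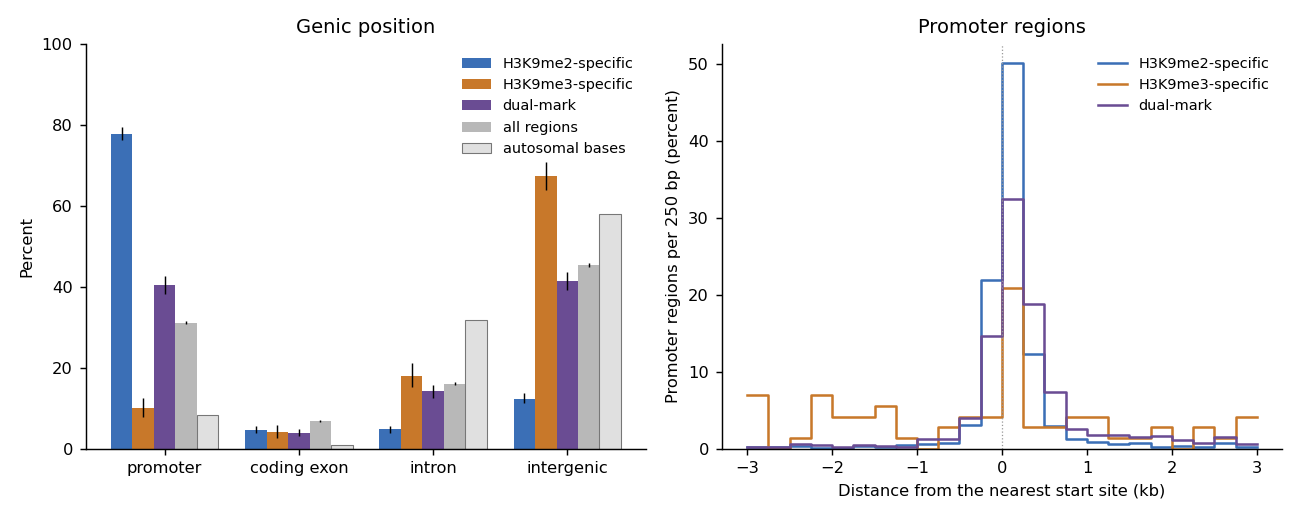
Left, percent of regions in each genic position by class, with exact 95% intervals as error bars, beside all WAT regions and the share of autosomal bases. Right, percent of promoter regions per 250 bp of distance between the middle of the region and the nearest start site (downstream positive). H3K9me2-specific regions were at promoters in 77.9% and gathered at the start site, while H3K9me3-specific ones were intergenic in 67.5%.

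Dual-mark peaks were wider and had higher scores than mark-specific peaks in each of the 4 lists. In the HFD H3K9me2 list the median width was 859.5 bp in dual-mark and 682 bp in H3K9me2-specific regions, and the median score was 134 in dual-mark and 83.7 in H3K9me2-specific peaks. In the SCD H3K9me2 list dual-mark peaks had a median width of 1172 bp and a median score of 249, against 911 bp and 93.3 in H3K9me2-specific peaks, and the ratio of the scores, 2.67, was the largest of the 4 lists. In the HFD H3K9me3 list dual-mark peaks had a median width of 1172 bp and a median score of 156, against 907 bp and 75.6 in H3K9me3-specific peaks. In the SCD H3K9me3 list the medians were 1040 bp and 75.65 in dual-mark peaks, against 769 bp and 64.85 in H3K9me3-specific peaks, and the ratio of the scores was 1.17. The quartiles of the classes overlapped in all 4 lists except for the scores of the SCD H3K9me2 list, where the lower quartile of dual-mark peaks was 155 and the upper quartile of H3K9me2-specific peaks was 132. Peaks of 2 kb or more made up 10.1% of dual-mark and 1.53% of H3K9me2-specific peaks in that list, and 205 of 1955 dual-mark and 23 of 719 H3K9me3-specific peaks in the HFD H3K9me3 list. The scores are those of single libraries and are not scaled for depth, so that a difference in score between lists has no replicate check.

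Peaks with a higher score met the other mark more often. Of the 5198 HFD H3K9me2 peaks with the highest scores, 82.7% overlapped an HFD H3K9me3 peak, against 29.0% of the 5197 with the lowest scores. Of the 1883 SCD H3K9me3 peaks with the highest scores, 74.1% overlapped an SCD H3K9me2 peak, against 38.1% of the 1882 with the lowest. The same mark in the other diet behaved alike, with 88.9% of the 5198 highest and 29.0% of the 5197 lowest HFD H3K9me2 peaks met by an SCD H3K9me2 peak. Inside the dual-mark regions the peaks of the marks lay close together, which the joining of overlapping peaks in part required. The middles of the strongest HFD H3K9me2 and HFD H3K9me3 peaks were a median of 74 bp apart, and those of the HFD and SCD H3K9me2 peaks, which share a mark, 66.75 bp apart. The H3K9me2 peak was wider than the H3K9me3 peak in 180 of 1894 dual-mark regions in HFD and in 1277 of 1894 in SCD. Whole lists went the same way. Over all their peaks, the median width in HFD was 658 bp for H3K9me2 and 831 bp for H3K9me3. In SCD it was 888 bp for H3K9me2 and 807 bp for H3K9me3. Widths are not scaled between libraries, so which mark had the wider peaks cannot be read from these counts.

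**Figure D3:**
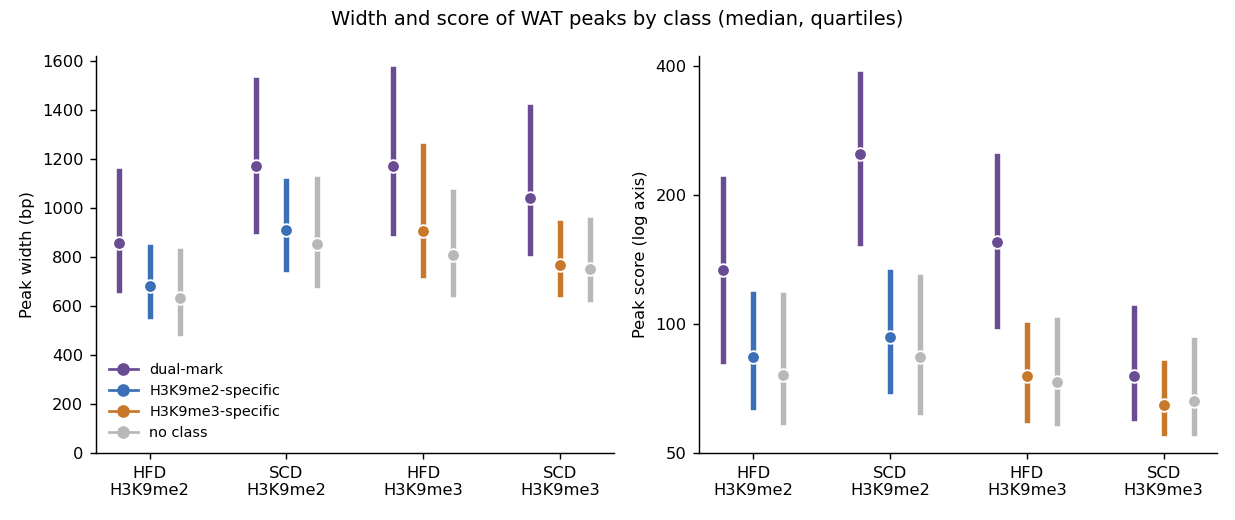
Median (points) and quartiles (lines) of peak width in bp and of peak score on a log axis, for dual-mark, mark-specific and unclassed peaks of each WAT list. Dual-mark medians were above the mark-specific ones in all 4 lists, by 1.26 to 1.35 times in width and by 1.17 to 2.67 times in score. The classes were set by overlap and by score, and the part of this rule in the differences was not tested.

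Base composition followed the classes. In 500-base windows at the middle of each region, H3K9me2-specific regions had a median GC content of 69.2% and 49 CpG, H3K9me3-specific regions 54.0% and 13 CpG, and dual-mark regions 65.6% and 33 CpG. Windows taken every 20 kb along the autosomes had a median of 41.8% GC and 3 CpG, and windows at start sites 56.4% GC and 17 CpG. The GC content of fragments moves with their recovery in sequencing, and its part in these lists was not tested. Away from promoters the H3K9me2-specific regions still had 63.0% GC and 27 CpG, and the dual-mark ones 64.4% GC and 30 CpG.

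Tandem repeats, in which the window matched itself after a shift of 2 to 250 bases in at least 80% of its positions, were frequent in dual-mark regions away from promoters. They were found in 568 of 1129 such windows (50.3%), against 74 of 605 H3K9me2-specific (12.2%) and 54 of 642 H3K9me3-specific windows (8.41%) away from promoters, and 0.158% of the windows along the autosomes. At promoters 2.09% of dual-mark windows held one. Of the 584 dual-mark windows with a tandem repeat, 285 had a repeat unit of 212 bases and a further 42 one of 208 bases. The promoters of young L1 retrotransposons in mouse are known to consist of tandem monomers with units of a comparable length, but no repeat annotation was used here and the identity of these repeats was not tested. Without regions that held a tandem repeat, the promoter share of the dual-mark class was 57.2% instead of 40.4%.

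Single 16-base words recurred among regions away from promoters. These words were chosen after the data were seen, as those present in the most windows of a class away from promoters, on either strand. Each is named after the class it was chosen in. A high share in that class follows in part from this choice.
dual-mark word: aattagtctgaacagg
H3K9me3-specific word: aaggagcCGagggtgg
H3K9me2-specific word: acacacacacacacac
The dual-mark word was in 331 of 1129 dual-mark windows away from promoters (29.3%), in 24 of 605 H3K9me2-specific ones (3.97%) and in 0 of 642 H3K9me3-specific ones, against 0.0936% of windows along the autosomes. The regions that held it were on all 19 autosomes, and 92.7% of them had a tandem repeat. The H3K9me3-specific word was in 94 of 642 H3K9me3-specific windows away from promoters (14.6%), in 25 dual-mark ones (2.21%) and in 0 H3K9me2-specific ones, against 0.0317% along the autosomes. The H3K9me2-specific word, a plain ac repeat, was in 124 of 605 H3K9me2-specific windows away from promoters (20.5%), against 4.67% of H3K9me3-specific windows, 6.11% of dual-mark windows and 5.61% along the autosomes. Reads that mapped to multiple sites had been removed by the authors, so that repeats entered the lists only through copies in which reads mapped to 1 site.

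Of the 21284 autosomal protein-coding genes, 2362 had an H3K9me2-specific region at a promoter (11.1%), 74 an H3K9me3-specific one (0.348%) and 792 a dual-mark one (3.72%), while 57.2% had a WAT region of any kind there. A gene was counted in a class when a region of that class lay at a promoter, whatever other peaks lay there. Genes are called H3K9me2-specific, H3K9me3-specific or dual-mark below in this sense. With the class set instead by any peak of the lists within the promoter, 1955 genes were H3K9me2-specific, 57 H3K9me3-specific and 933 dual-mark. The strongest H3K9me2-specific promoter region was that of Cux1 (chr5:137041168-137044225), with a score of 332.51 in HFD and 344.19 in SCD. It was followed by Rasa1, a GTPase-activating protein that turns off Ras, with 295.13 in HFD and 299.32 in SCD. The region at the promoters of B3galt6, a galactosyltransferase of proteoglycan synthesis, and Sdf4 had 281.87 in HFD and 321.51 in SCD. The HFD score was the lower one in each of these regions, and neither H3K9me3 list had a peak at 50 or more in any of them.

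H3K9me3-specific promoter regions had lower scores and lay further from the start. That of Pld1, which encodes phospholipase D1, had 200.96 in HFD and 78.17 in SCD and lay 1326 bp from the nearest start site (chr3:27966216-27968004). Srd5a2, the steroid 5-alpha-reductase that activates testosterone, had 96.51 in HFD and 76.04 in SCD. Mcm10, a replication factor, had 79.27 in HFD and 90.83 in SCD. The strongest H3K9me3-specific regions were away from promoters. By their lowest score they were in an intron of Rassf8 with 224.15 in HFD and 368.92 in SCD, between genes on chromosome 7 (chr7:15406246-15408426) with 214.19 in HFD and 206.27 in SCD, and in an intron of Kif27, a kinesin, with 205.12 in HFD and 576.06 in SCD.

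The strongest dual-mark promoter regions scored higher than the strongest promoter regions of the other classes. Muc19, a gel-forming mucin of salivary glands, had scores of 2388.03 in HFD and 3100 in SCD for H3K9me2, and of 2755.1 in HFD and 544.91 in SCD for H3K9me3. The value of 3100 was the highest score in the SCD H3K9me2 list and in both H3K9me3 lists of WAT. Whether it is an upper limit of the score was not tested. Flg, the epidermal protein filaggrin, had 1666.35 and 2257.1 for H3K9me2 in HFD and SCD, and 1570.21 and 356.57 for H3K9me3. Both genes encode proteins with long arrays of repeats. Promoter came first in the order of positions, so a region within 3 kb of a start site could also hold coding exons. Whether the Muc19 and Flg regions, the latter 8141 bp wide, lay in such exons was not tested. Elavl2, a neuronal RNA-binding protein, had 624.49 and 703.38 for H3K9me2 in HFD and SCD, and 340.37 and 430.43 for H3K9me3. Other neuronal genes among the first 10 were Mdga2, Dlgap1 and Plcb1. Away from promoters, a dual-mark region lay 29074 bp from the start of Rasgrf1 (chr9:89774301-89776777), an imprinted gene of mouse whose control region upstream of the start holds a tandem repeat, and scored 393.28 and 739.22 for H3K9me2 in HFD and SCD, and 340.95 and 338.35 for H3K9me3. Its window held a tandem repeat.

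Gene lists are given beside the shares of all genes, which were 11.1% for the H3K9me2-specific, 0.348% for the H3K9me3-specific and 3.72% for the dual-mark class. Many of these lists had a region of any kind at more of their promoters than the 57.2% of all genes. Of 20 genes of lipogenesis and triglyceride synthesis, 6 had an H3K9me2-specific region (95% interval 11.9 to 54.3%, against 11.1% of all genes), 0 an H3K9me3-specific and 0 a dual-mark one, and 85.0% had any region. Elovl6, a fatty acid elongase, scored 189.24 in HFD and 148.94 in SCD. Fasn, the fatty acid synthase, scored 173.31 in HFD and 123.67 in SCD (chr11:120684809-120686464). Acaca, the acetyl-CoA carboxylase that feeds it, scored 74.55 in HFD and 140.03 in SCD, and Scap, which escorts the sterol-regulated transcription factors, 98.07 in HFD and 154.48 in SCD. Elovl6 and Fasn scored higher and Acaca and Scap lower in HFD than in SCD, without a replicate check. Of 24 genes of lipolysis and fatty acid oxidation, 1 had an H3K9me2-specific region, Prkaca, the catalytic subunit of protein kinase A. These lists are short, and the interval of the lipolysis list (0.105 to 21.1) included the share of all genes.

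Among 28 white adipocyte and adipogenesis genes, 4 were H3K9me2-specific (14.3%, interval 4.03 to 32.7), 0 H3K9me3-specific and 1 dual-mark (3.57%), near the 11.1% and 3.72% of all genes. Klf4, an early adipogenic factor, scored 108.35 in HFD and 182.3 in SCD, and Rxra, the partner of Pparg, 97.61 in HFD and 76.95 in SCD. The others were Hoxc8, a gene of white rather than brown fat, and Gata2, which restrains adipogenesis. The dual-mark gene was Klf5, an activator of Pparg, with 379.88 and 354.71 for H3K9me2 in HFD and SCD, and 212.8 and 73.67 for H3K9me3. Pparg itself, the master regulator of adipocytes, was in no class, with an H3K9me2 peak of 120.2 in SCD alone and an H3K9me3 peak of 67.79 in HFD alone. Of 28 brown adipocyte and thermogenesis genes, 5 were H3K9me2-specific (17.9%, interval 6.06 to 36.9), among them Tfam, the mitochondrial transcription factor, with 111.23 in HFD and 199.88 in SCD, and 3 were dual-mark (10.7%, interval 2.27 to 28.2). Both intervals included the shares of all genes. The dual-mark genes were Zic1, Tbx1 and Lhx8, developmental factors known as markers of brown or beige fat, and Zic1 scored 246.02 and 350.4 for H3K9me2 in HFD and SCD, and 341.68 and 117.12 for H3K9me3.

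Of 28 insulin signaling genes, 4 were H3K9me2-specific and 4 dual-mark (14.3% each, interval 4.03 to 32.7), against 11.1% and 3.72% of all genes, and 96.4% had any region. Ptpn1, a phosphatase of the insulin receptor, was H3K9me2-specific with 189.14 in HFD and 125.91 in SCD, and Socs3, an inhibitor of the receptor, with 100.73 in HFD and 121.34 in SCD. The dual-mark genes were Tbc1d4, which controls glucose transporter traffic, Grb10 and Grb14, adaptors that inhibit the receptor, and Gsk3b. Grb10, which is imprinted in mouse, scored 174.13 and 412.65 for H3K9me2 in HFD and SCD, and 239.12 and 71.68 for H3K9me3. Of 50 Wnt signaling genes, 12 were H3K9me2-specific (24.0%, interval 13.1 to 38.2, against 11.1% of all genes) and 0 H3K9me3-specific, and 45 had any region. The 3 dual-mark genes were the antagonist Sfrp1 and the receptors Fzd8 and Fzd2. Sfrp1 scored 233.37 and 747.41 for H3K9me2 in HFD and SCD, and 282.49 and 141.26 for H3K9me3.

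Of 85 MAPK signaling genes, 15 were H3K9me2-specific (17.6%, interval 10.2 to 27.4, which included the 11.1% of all genes), 1 H3K9me3-specific and 1 dual-mark, and 89.4% had any region. Besides Rasa1 they included Jund, an AP-1 subunit, with 293.21 in HFD and 157.55 in SCD, and Ppp3cb, a calcineurin subunit, with 116.16 in HFD and 138.31 in SCD. The H3K9me3-specific member was Map3k4, with 96.37 in HFD and 68.16 in SCD, and the dual-mark one Fgfr1, with 220.68 and 260.47 for H3K9me2 in HFD and SCD, and 75.19 and 54.81 for H3K9me3. Of 34 genes of TNF and NF-kB inflammation, 6 were H3K9me2-specific (17.6%, interval 6.76 to 34.5, which included the 11.1% of all genes) and 0 were in another class. Among them were Nfkb2, with 77.2 in HFD and 89.21 in SCD, and Map3k14, the NF-kB-inducing kinase, with 60.79 in HFD and 104.34 in SCD. The promoter window of Map3k14 also held an HFD H3K9me3 peak of 90.88 and a second HFD H3K9me2 peak of 74.17, outside the H3K9me2-specific region. Map3k5, a stress kinase that the study discusses, was in no class, with 183.91 in HFD and 274.08 in SCD for H3K9me2 and 53.41 in HFD alone for H3K9me3. Vegfa, an angiogenic factor, had 126.77 in HFD and 93.77 in SCD for H3K9me2 and 163.94 in HFD alone for H3K9me3. Met, the receptor of hepatocyte growth factor, had an H3K9me2-specific region and, elsewhere in its promoter window, an SCD H3K9me3 peak of 89.22.

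Of 24 genes for H3K9 methyltransferases, demethylases and readers, 4 were H3K9me2-specific (16.7%, interval 4.74 to 37.4, which included the 11.1% of all genes) and 0 in another class. They were Ehmt2, which encodes G9a, with 66.72 in HFD and 69.5 in SCD, Cbx3 and Cbx1, which encode HP1 proteins, and the demethylase gene Phf2. The promoter window of Ehmt2 also held, outside this region, an HFD H3K9me3 peak of 82.59. Of 18 macrophage markers, 4 had a WAT region of any kind (22.2%, against 57.2% of all genes). Of the 18, 1 had a class, the Fc receptor gene Fcgr3, which was dual-mark within a region of 17210 bp (5.56%, interval 0.141 to 27.3). Of 15 endothelial markers, 2 were dual-mark, Sox17 and Flt1 (13.3%, interval 1.66 to 40.5). Both intervals included the 3.72% of all genes. Whether a class came from adipocytes or from other cells of the tissue was not tested.

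In some gene families the dual-mark share was above that of all genes. Of 24 clustered protocadherin genes, which encode adhesion molecules that give neurons an identity, 12 had a dual-mark region (95% interval 29.1 to 70.9%, against 3.72% of all genes), 1 an H3K9me3-specific and 0 an H3K9me2-specific one. The H3K9me3-specific region was at Pcdhgc5, which also had a dual-mark region. Neighbouring members of such a cluster can share a region. Of 72 developmental transcription factors of the Sox, Pax, Lhx, Dlx, Tbx, Nkx and sine oculis homeobox families, 15 were dual-mark (20.8%, interval 12.2 to 32.0, against 3.72% of all genes) and 9 H3K9me2-specific (12.5%, against 11.1%). Sox11 scored 557.96 and 806.84 for H3K9me2 in HFD and SCD, and 281.19 and 159.73 for H3K9me3, and Nkx2-1, a factor of lung, thyroid and forebrain, 403.67 and 242.46 for H3K9me2 and 175.61 and 84.37 for H3K9me3. Of 40 forkhead factors, 5 were dual-mark (12.5%, interval 4.19 to 26.8) and 6 H3K9me2-specific (interval 5.71 to 29.8%). Of 93 potassium channel genes, 11 were dual-mark and 11 H3K9me2-specific (11.8% each, interval 6.05 to 20.2, against 3.72% and 11.1% of all genes). In Sox11 and Nkx2-1 the SCD H3K9me3 score was the lowest of the 4. Any WAT region was at 100% of the protocadherin, 94.4% of the developmental factor, 92.5% of the forkhead and 78.5% of the potassium channel promoters. Among all genes the share was 57.2%, and the part of this difference in the dual-mark shares was not tested.

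Olfactory and vomeronasal receptor families had few regions of any kind, and few of a class. Of 1106 olfactory receptor genes, 1 had an H3K9me2-specific, 1 an H3K9me3-specific and 4 a dual-mark region. The H3K9me2-specific and the H3K9me3-specific region were neighbours at the same gene, Olfr672, whose promoter thus held both marks. Any WAT region was at 55 of the 1106 genes (4.97%, against 57.2% of all genes). Of 320 vomeronasal receptor genes, 17 had any WAT region (5.31%). Of these 320, 0 were H3K9me2-specific and 4 dual-mark (1.25%, against 3.72% of all genes). A further 2 were H3K9me3-specific (0.625%, interval 0.0758 to 2.24, which included the 0.348% of all genes). Of 358 Zfp zinc finger genes, a family that includes repressors of retrotransposons, 33 were H3K9me2-specific, 0 H3K9me3-specific and 10 dual-mark. Of 78 genes of cytoplasmic ribosomal proteins, 10 were H3K9me2-specific and 3 dual-mark, and of 67 replication-dependent histone genes, 8 were H3K9me2-specific and 0 dual-mark, near the shares of all genes for the H3K9me2-specific class.

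**Figure D4:**
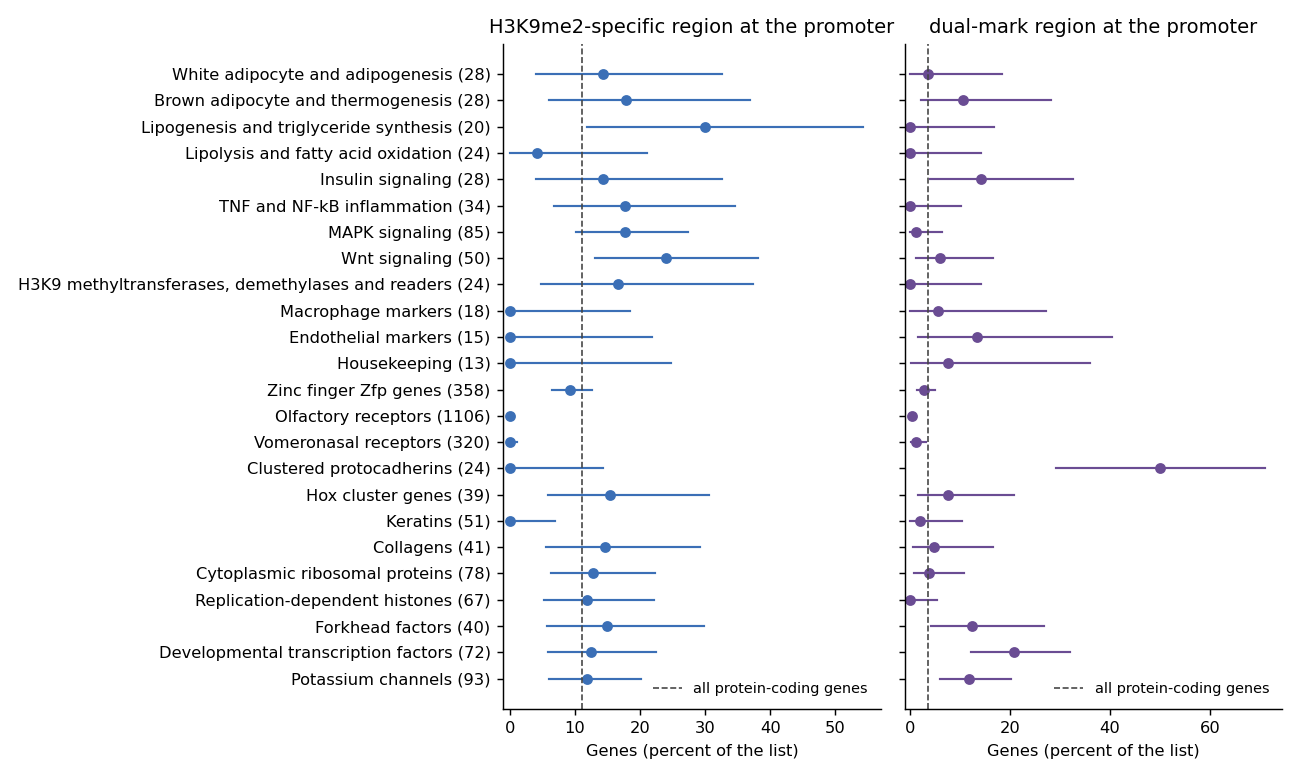
Percent of the genes of each list or family (number of genes in brackets) with an H3K9me2-specific region (left) or a dual-mark region (right) at a promoter, with exact 95% intervals as lines and the share of all protein-coding genes dashed. On the left, the intervals of lipogenesis (6 of 20) and Wnt signaling (12 of 50) lay above the dashed line. Many other lists were above it there with intervals that included it. On the right, the intervals of clustered protocadherins (12 of 24), developmental transcription factors (15 of 72), insulin signaling (4 of 28), forkhead factors (5 of 40) and potassium channels (11 of 93) lay above it. Olfactory receptors were near 0 on both sides.

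Along the chromosomes, the classes gathered in different places. The 1 Mb windows with the most H3K9me2-specific regions were next to each other on chromosome 10 (chr10:79000001-81000000), with 20 and 22 regions, in gene-dense DNA with 60 and 59 protein-coding genes. Genes with such a promoter there included Gpx4, Bsg, Mbd3, Dot1l and Nfic. The windows with the most H3K9me3-specific regions were next to each other on chromosome 4 (chr4:145000001-147000000), with 11 regions each, together with 10 and 9 dual-mark regions, and they held 8 and 10 genes. A window on chromosome 11 (chr11:99000001-100000000) held 20 dual-mark regions, 19 of them at promoters and many at genes of keratin-associated proteins of hair such as Krtap1-3 and Krtap4-1. The chromosome with the most H3K9me2-specific regions per Mb was 11, with 1.76, which was also among the densest in genes. Chromosome 7 had the most H3K9me3-specific regions per Mb, with 0.511, and chromosome 12 the most dual-mark regions, with 1.13.

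The BAT lists gave an independent view of the classes, since they were not used to choose the regions. Dual-mark WAT regions were found in nearly all BAT lists, with a peak in 93.7% of them in HFD BAT H3K9me2, 90.3% in SCD BAT H3K9me2, 98.8% in HFD BAT H3K9me3 and 94.8% in SCD BAT H3K9me3. Over all WAT regions, BAT H3K9me2 peaks were met in 48.5% (HFD) and 39.5% (SCD), and BAT H3K9me3 peaks in 60.3% (HFD) and 44.9% (SCD). All 4 BAT lists had a peak in 83.9% of dual-mark regions, against 24.5% of all WAT regions. H3K9me2-specific WAT regions were met by the BAT H3K9me2 lists in 55.7% in HFD and 71.2% in SCD, and by the BAT H3K9me3 lists in 96.0% in HFD and 90.1% in SCD. H3K9me3-specific WAT regions were met by BAT H3K9me2 in 61.6% in HFD and 26.5% in SCD, and by BAT H3K9me3 in 37.1% in HFD and 20.4% in SCD. The SCD intervals of this class overlapped, with 23.3 to 29.9 for BAT H3K9me2 and 17.5 to 23.6 for BAT H3K9me3. As whole classes, the specific regions of WAT were thus met more often by the BAT lists of the other label, in both diets. The 94 H3K9me3-specific regions that held the H3K9me3-specific word were an exception, with BAT H3K9me2 in 62.8% and BAT H3K9me3 in 61.7% in HFD, and BAT H3K9me2 in 10.6% and BAT H3K9me3 in 50% in SCD.

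The same was seen in the patterns of both diets together. Of the H3K9me2-specific WAT regions, 2 had BAT peaks of H3K9me2 alone in both diets and 301 had BAT peaks of H3K9me3 alone in both diets (interval 9.86 to 12.2%, against 4.31% of all WAT regions). Of the H3K9me3-specific WAT regions, 63 had BAT peaks of H3K9me2 alone in both diets (8.82%, against 1.56% of all WAT regions) and 16 of H3K9me3 alone (2.24%). With the same number of peaks taken from each BAT list, H3K9me2-specific regions were met by BAT H3K9me2 in 33.5% in HFD and 71.2% in SCD and by BAT H3K9me3 in 86.7% in HFD and 89.2% in SCD, and H3K9me3-specific regions by BAT H3K9me2 in 43.6% in HFD and 26.5% in SCD and by BAT H3K9me3 in 13.7% in HFD and 18.1% in SCD. For the whole classes the direction was also the same at promoters and away from them. The H3K9me3-specific promoter regions were few, and in SCD 23 of 72 had a BAT H3K9me2 peak and 16 a BAT H3K9me3 peak. At promoters, H3K9me2-specific regions were met by BAT H3K9me2 in 56.0% (HFD) and 76.5% (SCD). BAT H3K9me3 met 98.4% and 95.7% of them. All WAT promoter regions went the same way, with BAT H3K9me2 in 60.2% (HFD) and 60.7% (SCD) and BAT H3K9me3 in 84.6% and 73.8%. The part of promoter position in the result for H3K9me2-specific regions was not tested. No BAT list had a peak in 2.31% of H3K9me2-specific, 24.9% of H3K9me3-specific and 0.106% of dual-mark regions, against 26.6% of all WAT regions. Whether the marks differ between the tissues at these regions or the labels differ from the marks cannot be told apart.

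**Figure D5:**
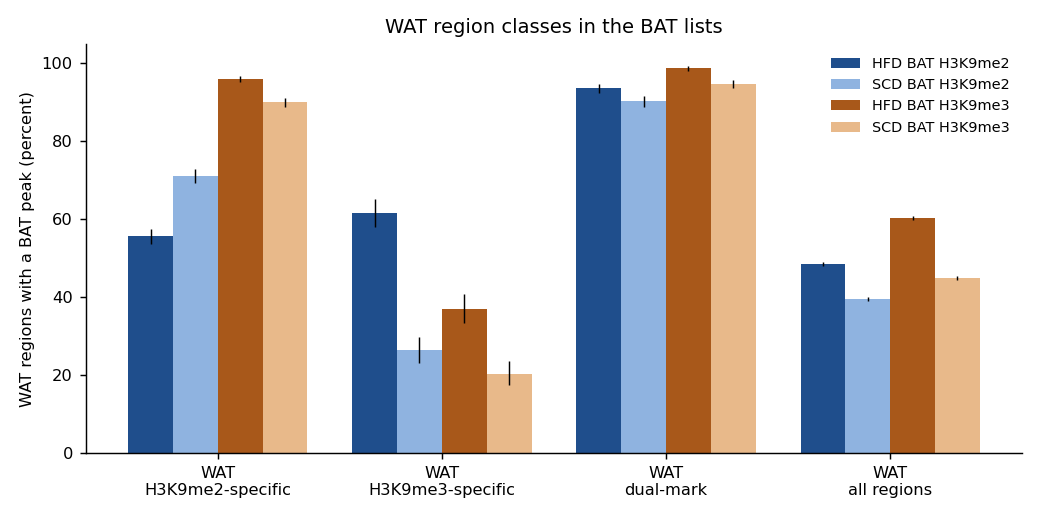
Percent of WAT regions of each class, and of all WAT regions, with a peak in each BAT list at a score of 50 or more, with exact 95% intervals as error bars. H3K9me2-specific WAT regions had a BAT H3K9me3 peak in 96.0% (HFD) and 90.1% (SCD), above the BAT H3K9me2 lists. H3K9me3-specific WAT regions had BAT H3K9me2 peaks more often than BAT H3K9me3 peaks, with overlapping intervals in SCD.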

How the data were processed

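ChIP-seq of H3K9me2 and H3K9me3 was available as 8 deposited peak lists from 12 libraries, of which the 4 WAT lists were compared here and the 4 BAT lists served as an independent view. The 4 inputs were not analysed here, and how they entered peak calling is not stated. Per the submitters' processing notes, reads were checked with FastQC, trimmed with Trim Galore, aligned to mm9 with Bowtie2 2.4.2 and called with MACS2, and per the paper's methods reads mapped to multiple sites were removed. Each deposited list gives a position and a score of the authors per peak. The unit of the score is not given. It was taken as −log10 of the peak's p-value multiplied by 10, so that 50 stands for 1e-05, and it is not scaled for depth.

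Groups came from the library titles, with 1 library per diet, tissue and mark. The score minimum was 50, the lowest score in the lists that do not go lower. Peaks overlapping by at least 1 bp were joined, so that a region is the union of its peaks. Genes came from GENCODE vM1 on NCBIM37, with 21284 autosomal protein-coding genes after records of the same symbol, chromosome and strand were joined, and 67153 start sites. All peak ends lay within the chromosomes of this reference. Position was set in the order promoter, coding exon, untranslated exon, intron and intergenic. The named regions of a class were taken from the 10 promoter regions and the 5 others with the highest lowest score, up to 4 genes of a list and class, the genes that the study names, and the 3 densest windows of 1 Mb, of which a part is printed. Krtap genes were named from these windows. Sequences came from NCBIM37. The planned exclusion of masked repeats from them could not be applied, since the reference is not masked. The members, lists, rules and alternatives were chosen with earlier results of these data known, and tandem repeats, words and some BAT settings after the region classes had been seen. Some results are not reported here.

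The lists gave no replicate, so no test between groups was made. Alternatives were a score of at least 80, the deposited lists without a minimum, equal numbers of peaks, other overlap rules, single diets, other promoter definitions and other BAT settings. Python 3.11.15, NumPy 2.4.6, SciPy 1.17.1, pysam 0.24.0 and matplotlib 3.10.9 were used. Joining was tested on simulated lists and checked with bedtools 2.31.1, which differed in 0 of 45410 regions.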

Additional observations from a re-analysis of the deposited data

Results flagged for a closer look

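Between the diets, the H3K9me2 and the H3K9me3 lists of WAT moved in opposite directions in 5 measures. With 1 library each, none of these differences was tested, and each is HFD minus SCD at a score of 50 or more. The number of peaks differed by -114 for H3K9me2 and by 20151 for H3K9me3, and the covered length by -5.55 Mb for H3K9me2 and by 18.8 Mb for H3K9me3. The median width differed by -230 bp for H3K9me2 and by 24 bp for H3K9me3, the median score by -10.3 for H3K9me2 and by 7.45 for H3K9me3, and the share of peaks at promoters by -4.58 percentage points for H3K9me2 and by 9.94 for H3K9me3. The SCD H3K9me3 list, with 7531 peaks, enters all 5 H3K9me3 values, and the part of its depth in them was not tested.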

How the results depend on the processing

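The promoter shares kept their order, with H3K9me2-specific first, dual-mark second and H3K9me3-specific last, under the alternatives tried here except the HFD lists alone. No paired analysis was possible because the labels carry no replicate numbers and each diet and mark has 1 library, and no library of a group was left out for the same reason. Of 112 alternative values, 53 stayed near the value reported and 59 moved further, and the causes were not tested. Few regions remained in the H3K9me3-specific class under stricter rules. The depth of the libraries is unknown, and its part in the sizes of the classes was not tested.

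With a score of at least 80, 191 H3K9me3-specific and 632 dual-mark regions were left, with 9 and 280 promoter genes. The promoter share was then 81.8% for H3K9me2-specific and 4.19% for H3K9me3-specific regions, and dual-mark peaks were 1.17 times as wide as specific ones in HFD H3K9me3 and 1.26 times in SCD H3K9me3, with 1.82 times the score in HFD H3K9me3. With the deposited lists without a minimum there were 1370 H3K9me3-specific and 3423 dual-mark regions, with 156 and 1494 promoter genes, and 75.9% of H3K9me2-specific regions were at promoters. With equal numbers of 7531 peaks, the classes held 1289 H3K9me2-specific, 463 H3K9me3-specific and 1020 dual-mark regions, with 1175 H3K9me2-specific and 418 dual-mark promoter genes and 82.0% of H3K9me2-specific regions at promoters. Dual-mark over specific widths were then 1.21 (HFD H3K9me2), 1.22 (SCD H3K9me2), 1.18 (HFD H3K9me3) and 1.46 (SCD H3K9me3), and the scores 1.38, 2.10, 1.66 and 1.11 in the same lists. With absence of the other mark required at any score, 421 H3K9me3-specific regions were left.

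With the HFD lists alone, 9792 regions had H3K9me2 alone (35.4% at promoters), 16922 H3K9me3 alone (19.9%) and 10665 both (49.0%). With the SCD lists alone, the numbers were 16831 (51.6%), 3465 and 4000 (29.7%). The promoter shares of the H3K9me2-specific, H3K9me3-specific and dual-mark classes were 74.2%, 5.60% and 36.0% with promoters of 1 kb, and 70.5%, 6.58% and 35.2% with 1 start site per gene. Without tandem repeats, chosen after the data were seen, they were 79.98% for H3K9me2-specific and 57.2% for dual-mark regions.

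The share with a BAT H3K9me2 peak minus that with a BAT H3K9me3 peak was -40.3 points in HFD and -18.8 in SCD for H3K9me2-specific, 24.5 and 6.02 for H3K9me3-specific, and -5.07 and -4.54 for dual-mark regions. At a BAT score of 80 it was, in HFD and SCD, -64.2 and -33.9 for H3K9me2-specific, 13.3 and 4.34 for H3K9me3-specific, and -16.6 and -9.82 for dual-mark regions. In settings chosen after the data were seen, it was, in HFD, -53.2 for H3K9me2-specific and -11.0 for dual-mark regions with equal numbers of BAT peaks, -32.9 and -3.19 away from promoters, and at promoters 16.7 for H3K9me3-specific and -7.84 for dual-mark regions.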
